A study of Mus musculus with 4 samples.

Results

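The cytosolic ribosomal protein genes encode the proteins of the small and large subunits of the ribosome that translates nuclear transcripts. They were followed here in T cells with a gamma delta receptor that reside between the epithelial cells of the colon (intraepithelial lymphocytes). A probe set was taken as a member if its only gene symbol began with Rpl or Rps and a digit, or was Rpsa, Rplp0, Rplp1 or Rplp2. The Rps6ka and Rps6kb kinases were left out. The rule found 53 genes on 109 probe sets, out of 18194 named genes on the 45101 probe sets of the array. Of these, 95 probe sets belonged to 43 ribosomal protein genes: 21 of the small subunit (53 probe sets), 20 of the large subunit (40 probe sets) and 2 of the stalk, Rplp0 and Rplp2. The other 10 genes (14 probe sets) share the name but differ in kind. They are the paralogs Rpl3l, Rpl7l1, Rpl22l1, Rpl39l, Rps4l and Rps27l, the kinase-like genes Rps6kc1 and Rps6kl1, the binding protein gene Rps19bp1 and the pseudogene Rps15a-ps6. A further 110 probe sets listed a ribosomal protein among several symbols and are not members. Rplp1, Rps27a, Rpl3 and Rpl10 had no probe set with 1 symbol and are not analysed here.

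The study compared cells sorted from the colon of DSS-treated mice (2 samples) with cells from untreated mice (2 samples). DSS (dextran sulfate sodium) damages the lining of the colon, and the treated mice drank it at 2% over 5 days before 3 days of recovery without it. All mice were of the strain written C57b/6 in the labels and were raised conventionally. RNA from each sample was amplified and hybridised to 1 array, and the labels do not say whether the samples came from separate animals, pools or sorts. The p-values therefore reflect no more than the scatter among these samples, part or all of which may be technical.

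Each ribosome needs 1 copy of nearly every ribosomal protein, and the genes are transcribed in all dividing and most resting cells. Their transcripts are among the most abundant of a lymphocyte. In mammals they begin with a run of pyrimidines at the 5′ end, the terminal oligopyrimidine motif, through which the mTOR pathway and the protein Larp1 adjust their translation as a group. Mammalian genomes also hold many processed pseudogenes of these genes, so that probes for 1 gene can match several sequences.

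Pyrimidine runs near the annotated start are shown for the genes whose array values are described most fully. Each line gives 30 bases, 5′ to 3′ on the strand of the gene, around the longest unbroken run of C and T. The run, in capitals, was sought within 50 bases of the annotated start on either side. The start itself lies outside some of these lines. The sequences are those of RefSeq on build GRCm38.p6.
Rpl13a, chr7:45128722-45128751, minus strand: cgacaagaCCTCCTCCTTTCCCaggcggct
Rps18, chr17:33955648-33955677, minus strand: gtcacttccgCTCTCTCTTCCacaggaggc
Rps28, chr17:33824567-33824596, minus strand: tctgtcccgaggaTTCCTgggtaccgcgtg
Rpl27, chr11:101442193-101442222, plus strand: gtcatcctcgCTCCTCCCTCCacacgccgg
Rpl35, chr2:39005115-39005144, minus strand: gccccgCCCTTTCCTCTTTCTCTCgaacca
Rps24, chr14:24490710-24490739, plus strand: gagcggTCCTCTTTTCCTCCTCTCCagctc
Rps9, chr7:3704024-3704053, plus strand: caaccgccttgTCTCTCTTTgtctcgggcc
Rpl22, chr4:152325679-152325708, plus strand: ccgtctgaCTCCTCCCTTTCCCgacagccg
Rpl22l1, chr3:28805499-28805528, plus strand: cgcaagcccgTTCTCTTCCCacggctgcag

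Among these, the run was 19 bases long in Rps24, 18 in Rpl35, 14 in Rpl13a and 5 in Rps28. Its first base lay at -42 from the annotated start in Rpl27, -39 in Rpl22, -37 in Rps24 and -21 in Rps28. In Rpl27, Rpl22, Rps24 and Rps28 the run ends before the start and is not part of the annotated transcript. A promoter was listed for 38 of the 43 ribosomal protein genes. In 32 of them (84.2%) a run of at least 8 pyrimidines, read on the gene's own strand, lay within 50 bases of the start. Runs before the start were counted as well as runs after it. The same held for 5 of 8 of the other member genes and for 24 of 69 genes of mitochondrial ribosomal proteins (34.8%). Over all 27025 genes with a promoter the share was 39.3%. Counted by promoter, it was 77.3% for the ribosomal protein genes and 35.7% for all. The run did not set the genes with the brightest signals apart. It was present in 18 of 23 genes whose brightest probe set had a mean signal of 32000 or more, and in 19 of the 23 other member genes with a promoter. The run is a match of letters in a window around an annotated start, not a mapped transcript end.

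The arrays differed at the bright end, where many members lie. The highest signal of any gene probe set was 80427 and 100455 on the DSS arrays, against 281602 and 250101 on the untreated arrays. The median of 9 spiked hybridisation control probe sets was 4033 and 3718 on the DSS arrays, against 28998 and 20570 on the untreated arrays. The median signal of the arrays was 157.1 and 163.3 for DSS, against 193.8 and 213.9 for untreated. Because these differences follow the groups, treatment and array brightness cannot be told apart for bright probe sets.

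The samples also differed in markers of other cells, each gene read on 1 probe set. Over all probe sets, 13.6% were higher and 25.4% lower on both DSS arrays. Of 18 macrophage and dendritic cell genes, 15 were higher on both DSS arrays and 0 were lower. Their summed signal was 67163 and 94712 on the DSS arrays, against 11748 and 4839 on the untreated arrays, and Cd163 lay below the median of its array on all 4. Csf1r, Lyz2 and Mpeg1 stood 4.02, 5.00 and 4.18 higher on the log2 scale. Of 15 T cell and intraepithelial lymphocyte genes, 2 were higher and 6 were lower on both DSS arrays. Their summed signal was 373817 and 399063 on the DSS arrays, against 678290 and 678595 on the untreated arrays. This sum is weighted to bright genes such as Ccl5 and Gzma, where treatment and array brightness cannot be told apart. The median difference of the 15 genes was -0.43 as deposited and -0.18 after quantile normalization. The defining gamma delta receptor gene Trdc had no probe set with 1 symbol, so these markers do not separate gamma delta cells from other T cells. Of 16 epithelial genes, 3 were higher and 2 lower, with summed signals of 17245 and 15003 on the DSS arrays, against 14434 and 11533 on the untreated arrays. Every cell type transcribes ribosomal protein genes, and the part of these cells in the results below was not tested. In bulk samples, fewer cells of a type and less RNA per cell cannot be told apart.

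As deposited, the 109 members had a typical difference close to that of the rest of the array, but this depended on the scaling. The median over the members, dim ones included, was -0.15 on the log2 scale (DSS minus untreated), beside -0.16 over all probe sets. After quantile normalization it was 0.23, beside -0.02 over all probe sets. All differences are of log2(signal + 32), which understates changes of dim probe sets. Both DSS arrays were higher than both untreated arrays for 20 members (18.3%), beside 13.6% of all probe sets. Both were lower for 36 members (33.0%), beside 25.4% of all probe sets. After quantile normalization the balance turned to 35 members higher and 16 lower, beside 17.3% and 19%. With at least 2-fold between the nearest arrays, the counts were 0 higher and 10 lower, beside 3.07% and 5.69% of all probe sets.

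No member passed the test. Of the members, 95 exceeded the median of their own array on at least 2 arrays and entered the limma fit of 24483 probe sets. At an adjusted p of 0.05 limma called 0 members and 0 of all probe sets (0%), with a smallest adjusted p of 0.666 among the members and 0.133 among all. At an unadjusted p under 0.05, 3 members were higher, beside 3.27% of all fitted probe sets, and 13 were lower, beside 3.99%.

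The typical member value hides a dependence on signal. As deposited, members of medium signal stood mostly higher in DSS and the brightest mostly lower, as the plot of difference by mean signal shows. Members were placed in 5 classes by their mean signal over all 4 arrays. Of the 25 members below 500, 3 were higher and 8 lower on both DSS arrays, beside 11.2% and 27.3% of all probe sets in the class, and their median difference was -0.16. The 10 members from 500 to 2000 had a median of 0.19, with 4 higher and 0 lower, beside 20.5% and 19.9%. The 17 members from 2000 to 8000 had a median of 0.53, with 7 higher and 2 lower, beside 29.5% and 10.9%. It was 0.34 without DSS replicate 2, and over the 5 of them whose probe set names have a plain ending it was -0.08 (0.27 with a common median). For the 17 members from 8000 to 32000 the median was 0.42, with 6 higher and 1 lower, beside 17.4% and 17.1%, and it was 0.16 without untreated replicate 1. The 40 members at 32000 and above had a median of -0.57, with 0 higher and 25 lower, beside 0.472% and 60.8%. After quantile normalization 14 of these 40 were higher and 7 lower, beside 20.8% and 23.6%. With a common median 5 were higher and 16 lower, beside 9.91% and 41.5%, and after cyclic loess 2 and 21, beside 5.19% and 56.6%.

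**Figure D1:**
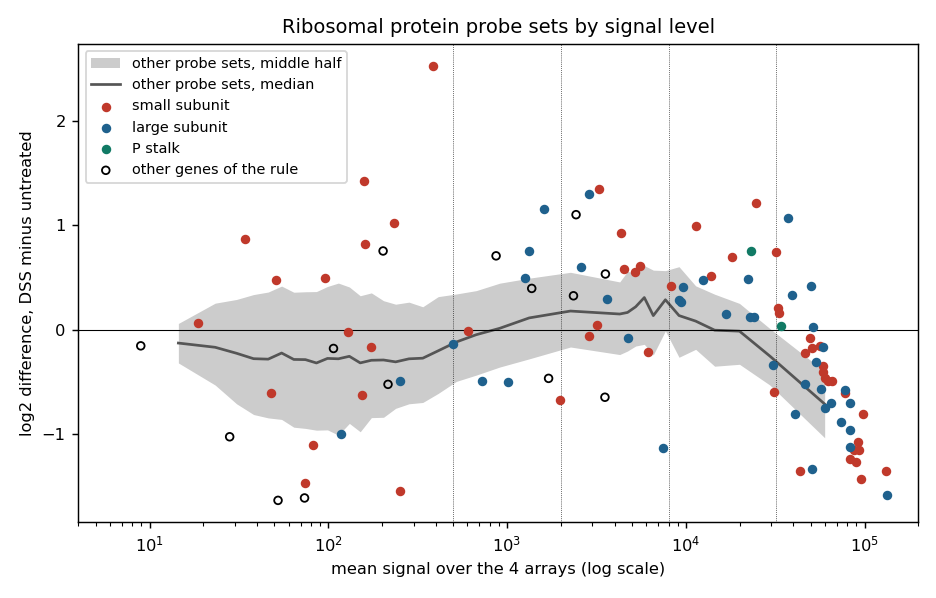
Each point is 1 of the 109 members, coloured by its role, with its log2 difference (DSS minus untreated) against its mean signal over the 4 arrays on a log axis; the line and shading give the median and the quartiles of all other probe sets in bins of signal, and dotted lines mark the class bounds. Members between 2000 and 32000 lie mostly above 0, and 33 of the 40 at 32000 and above lie below it.

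Probe sets of other genes followed the same course at the bright end and a flatter one below it. The other probe sets had class medians of -0.24, 0.02, 0.20, 0.01 and -0.61 in the order of rising signal. At 32000 and above the members and the others lay close together, at -0.57 and -0.61. From 2000 to 32000 the members lay above the others, at 0.53 and 0.42 beside 0.20 and 0.01. Among the 57 members at 8000 and above, the correlation between mean level and difference was -0.77, and among 821 other probe sets of that brightness it was -0.50. This is a correlation across probe sets of the same 4 arrays, many of them for the same gene.

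The arrays of the 2 groups differed in the spread of the members more than in their middle. The median member signal was 10605 and 9772 on the DSS arrays, against 7978 and 9172 on the untreated arrays. The highest signal of any member was 76126 and 89669 on the DSS arrays, against 246944 and 250101 on the untreated arrays. It was not the same member on every array. Signals above 100000 were reached by 0 members on either DSS array, against 12 and 15 members on the untreated arrays. Among all gene probe sets, 0 and 1 reached them on the DSS arrays, against 53 and 65 on the untreated arrays. Over the 57 members at 8000 and above, the SD of the log2 signals was 0.755 and 0.850 on the DSS arrays, against 1.35 and 1.38 on the untreated arrays. The bright members thus covered a narrower range on each DSS array than on either untreated array, and so did other bright probe sets. Over 821 other probe sets at 8000 and above, the SD was 0.816 and 0.909 on the DSS arrays, against 1.19 and 1.34 on the untreated arrays. By rank the order was the opposite: 28 and 30 members stood among the 100 brightest probe sets of the DSS arrays, against 19 and 21 on the untreated arrays. By summed signal, the members made up 5.69% and 6.41% of the DSS arrays, against 7.50% and 8.06% of the untreated arrays.

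**Figure D2:**
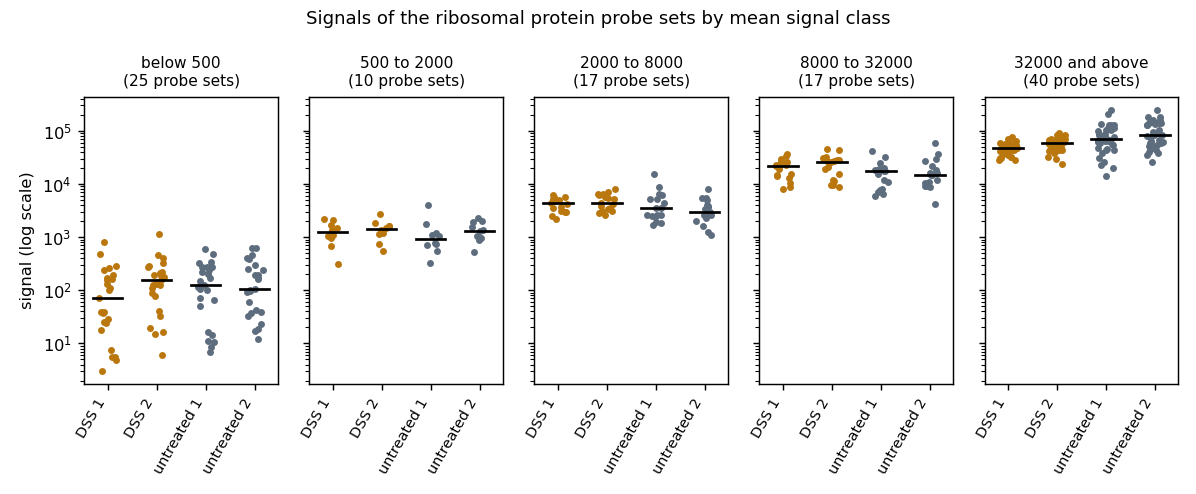
Each panel shows the signals of the members of 1 class of mean signal on a log axis, 1 point per probe set and a bar at the median, with the DSS arrays left of the untreated arrays. In the class at 32000 and above the medians are 47126 and 59926 on the DSS arrays, against 70066 and 81707 on the untreated arrays, and the points spread more widely on the untreated arrays.

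The DSS arrays resembled each other more than the untreated arrays did. Over the 109 members the correlation of log2 signals was 0.990 between the DSS arrays, against 0.958 between the untreated arrays. The median absolute difference between replicates was 0.349 for DSS and 0.594 for untreated on the log2 scale. Over all probe sets these medians were 0.464 for DSS and 0.737 for untreated.

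The proteins of the small subunit, which holds the decoding site, had a median difference of -0.15 over 53 probe sets, with 8 higher and 15 lower on both DSS arrays, beside 13.6% and 25.4% of all probe sets. After quantile normalization the median was 0.28, with 18 higher and 7 lower, beside 17.3% and 19% of all probe sets. With a common median it was 0.19, with 17 and 12, beside 22.5% and 15.9%. Cyclic loess gave 0.04, with 11 and 13, beside 17.7% and 18.8%. Rps18, a protein of the subunit's head, was among the members with the most negative t from limma. Its brightest probe set, 1455572_x_at, had 76126 and 89669 on the DSS arrays, against 246944 and 180802 on the untreated arrays. The groups did not overlap, the difference was -1.35 ± 0.39 (SE from limma, n = 2 each, limma adjusted p = 0.666), and quantile normalization turned it to 0.18. Rps28, a protein near the mRNA exit, was read on 3 probe sets that gave nearly the same picture. Its brightest, 1451101_a_at, had 56357 and 60982 on the DSS arrays, against 133514 and 185350 on the untreated arrays. The 3 differences were -1.42, -1.15 and -1.26, and they shrank to -0.44, -0.12 and -0.30 after quantile normalization.

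Rps20, another head protein, was read on a pair of bright probe sets. The first, 1456436_x_at, had 48543 and 60144 on the DSS arrays, against 128448 and 126520 on the untreated arrays. Both were lower on both DSS arrays, with differences of -1.24 and -1.15, which shrank to -0.37 and -0.15 after quantile normalization. Rpsa, also known as the laminin receptor precursor, had 65216 and 83361 on the DSS arrays, against 113183 and 146815 on the untreated arrays. Its difference of -0.81 ± 0.39 turned to 0.46 after quantile normalization. Rps3, which lines the mRNA entry channel and also has a role in DNA repair, had 55627 and 71322 on the DSS arrays, against 111728 and 81617 on the untreated arrays, for its brightest probe set. Its difference was -0.60 ± 0.39, and 0.40 after quantile normalization. A dim Rps3 probe set, 1455600_at, had 814.0 and 1148 on the DSS arrays, against 14.3 and 619.1 on the untreated arrays. That probe set gave the largest positive estimate of all members, 2.53 ± 1.10, with untreated replicates far apart.

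The small subunit probe sets with the largest positive t were read at lower signals than these. Rps24, mutated in some human patients with Diamond-Blackfan anaemia, had 33384 and 42924 on the DSS arrays, against 18336 and 14443 on the untreated arrays, for 1436064_x_at. The groups did not overlap, and the difference was 1.22 ± 0.38 (SE, n = 2 each, limma adjusted p = 0.666), 1.43 after quantile normalization. A dim Rps24 probe set, 1436500_at, had 164.5 and 108.0 on the DSS arrays, against 491.4 and 411.1 on the untreated arrays. It was lower on both DSS arrays, at -1.54 ± 0.53. Another dim Rps24 probe set, 1455195_at, was higher on both, at 1.03 ± 0.55. Rps9, a protein near the mRNA entry channel, had 4257 and 6477 on the DSS arrays, against 2581 and 1618 on the untreated arrays, for 1433689_s_at. The difference of 1.35 ± 0.43 stands against -1.35 ± 0.45 on its brightest probe set. Rps6, the substrate of the S6 kinases, had 3051 and 3463 on the DSS arrays, against 3519 and 2797 on the untreated arrays. Its groups overlapped, with a difference of 0.05 ± 0.38, and a dim probe set gave 0.50 ± 1.23.

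The proteins of the large subunit, which forms peptide bonds, also had a median difference of -0.15, over 40 probe sets, with 7 higher and 15 lower on both DSS arrays, beside 13.6% and 25.4% of all probe sets. After quantile normalization the median was 0.18, with 12 higher and 5 lower, beside 17.3% and 19% of all probe sets. With a common median it was 0.19, with 15 and 7, beside 22.5% and 15.9%. Cyclic loess gave -0.05, with 8 and 13, beside 17.7% and 18.8%. Rpl13a, which binds and silences some inflammatory transcripts in human monocytes after its release from the ribosome, was the member furthest from 0 by its moderated t. Its brightest probe set, 1455485_x_at, had 71232 and 82713 on the DSS arrays, against 210549 and 250101 on the untreated arrays. The difference was -1.58 ± 0.37 (SE, n = 2 each, limma adjusted p = 0.666), and -0.23 after quantile normalization. Rpl27 had 31198 and 32646 on the DSS arrays, against 76357 and 84948 on the untreated arrays, for 1453096_x_at. Its difference of -1.33 ± 0.36 kept most of its size after quantile normalization, at -0.83. Rpl4, whose loop lines the exit tunnel, had 35172 and 43016 on the DSS arrays, against 45394 and 68360 on the untreated arrays, a difference of -0.52 ± 0.40.

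Rpl41, the smallest ribosomal protein, was read on 4 probe sets with estimates above 0 on each. One of them, 1454639_x_at, had 5239 and 3900 on the DSS arrays, against 2637 and 1255 on the untreated arrays, a difference of 1.30 ± 0.47. The groups did not overlap there, while on the brightest probe set they did, with 50715 and 66568 on the DSS arrays, against 19709 and 95492 on the untreated arrays. Rpl22, whose loss in mice blocks the development of alpha beta T cells and spares gamma delta T cells, differed little. Its brightest probe set had 52568 and 58836 on the DSS arrays, against 63742 and 60775 on the untreated arrays. The 3 Rpl22 probe sets gave -0.16, -0.08 and -0.13, and after quantile normalization 0.54, -0.25 and 0.02. The remaining large subunit genes are given by their counts above.

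The stalk recruits elongation factors to the ribosome. Rplp0, its base, had 28776 and 41249 on the DSS arrays, against 22664 and 49552 on the untreated arrays, a difference of 0.04 ± 0.48 with overlapping groups. Rplp2 had 27495 and 32791 on the DSS arrays, against 19871 and 15846 on the untreated arrays. Its groups did not overlap, and the difference was 0.76 ± 0.37 (limma p adjusted over all probe sets = 0.666).

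Where several probe sets read 1 gene, they gave both signs in 10 of 19 genes and 1 sign in 9, as the plot of differences within genes shows. These 19 genes had at least 2 member probe sets of mean signal 500 or more, and the dimmest probe set lay above the brightest in 16. The median gap was 0.33 on the log2 scale, and 0.14 after quantile normalization, with 12 of 19 then above 0. Counting only probe sets of mean signal 500 or more, 4 genes had a probe set higher on both DSS arrays and another lower on both. They were Rpl13a, Rpl35, Rps18 and Rps9.

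Among genes with at least 3 such probe sets, the range of differences was widest in Rpl13a. Its 4 probe sets gave -1.58, -0.33, 0.13 (overlapping groups) and 0.41 in the order of falling signal. The dimmest of these had 12760 and 9772 on the DSS arrays, against 7672 and 9172 on the untreated arrays. Rps18 gave -1.35, -0.15 and 0.52 in the same order, and Rpl27 gave -1.33, -0.81 and 0.29. Rpl35, which lies at the rim of the exit tunnel, gave -0.70, -0.96, -0.88, 0.15 and 0.60. Rps24 ran the other way: its brightest probe set gave 1.22 and its dimmest of this signal gave -0.06. The gap between dim and bright probe sets also appeared in other genes. For 15 member genes whose brightest probe set was at 32000 or more, the median gap was 0.78 and the dimmest was above in 14. For 60 other genes of that brightness the median gap was 0.88, and the dimmest was above in 54 (90.0%). After quantile normalization the median gap was 0.14 for the member genes and 0.45 for the others.

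**Figure D3:**
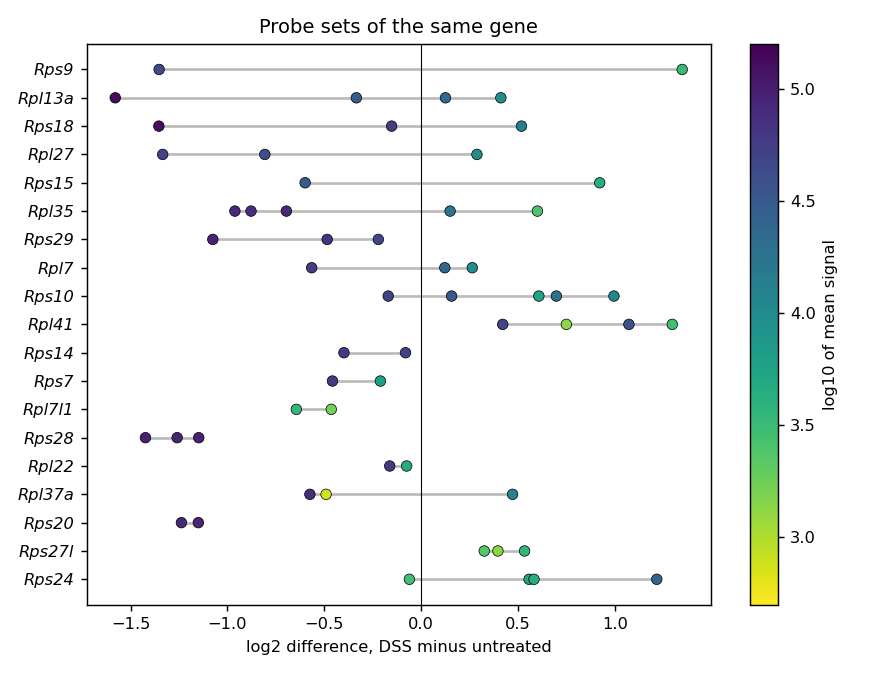
For each gene with at least 2 member probe sets of mean signal 500 or more, the log2 differences (DSS minus untreated) of its probe sets are shown, shaded by mean signal. In Rpl13a the values run from -1.58 for the brightest probe set to 0.41 for the dimmest.

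Some of these probe sets can match related sequences. Of the names of the 109 members, 40 end in _x_at, 4 in _s_at and 28 in _a_at, and 37 have no such ending. In an _x_at or _s_at probe set some probes can bind other transcripts, so these values are uncertain. The median was -0.34 over the 40 _x_at members, with 5 higher and 16 lower on both DSS arrays. It was -0.15 over the 37 plain members, with 7 higher and 11 lower, beside 13.6% and 25.4% of all probe sets. From 2000 to 8000 the endings differed: 7 _x_at members had a median of 0.53, 4 _a_at members 0.60 and 5 plain members -0.08. At 32000 and above there were 23 _x_at members with a median of -0.74 and 13 _a_at members with a median of -0.46. The 3 plain members had a median of -0.81 and ran from -1.12 to 0.04. Among the 172 other probe sets of that brightness the median was -0.68 for 79 _x_at probe sets and -0.18 for 17 plain ones.

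The paralogs give a view of genes that can stand in for a ribosomal protein or are made in particular tissues. Over their 10 probe sets the median difference was 0.09, with 4 higher and 3 lower on both DSS arrays. Over all probe sets the shares were 13.6% higher and 25.4% lower. Rpl22l1, which rises in mice that lack Rpl22, had 3703 and 3454 on the DSS arrays, against 2488 and 1091 on the untreated arrays, a difference of 1.10 ± 0.48. Its groups did not overlap, and the gap to its parent was not tested. Rps27l, a target of p53, gave 0.53, 0.33 and 0.40 on 3 probe sets, and its parent Rps27 gave -0.01 ± 0.43. The brightest Rps27l probe set had 4397 and 4158 on the DSS arrays, against 2574 and 3366 on the untreated arrays.

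Rpl7l1, a factor related to Rpl7, gave -0.64, -0.46 and -0.52 on 3 probe sets. Its brightest probe set had 2547 and 3109 on the DSS arrays, against 3586 and 5441 on the untreated arrays. The parent Rpl7 gave -0.57, 0.12 and 0.26 in the order of falling signal. Rpl39l, known from testis, had 266.3 and 279.0 on the DSS arrays, against 216.4 and 99.3 on the untreated arrays, a difference of 0.75 ± 0.63. Its parent Rpl39 had a difference of -0.50 ± 0.53 with overlapping groups. Rpl3l, a gene of striated muscle, was dim, with 39.0 and 208.2 on the DSS arrays, against 273.2 and 39.6 on the untreated arrays. Rps4l read 11.8 or less on every array, and its parent Rps4x gave -0.49 ± 0.46 on its bright probe set and 0.06 on a dim one.

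The 4 members that are not ribosomal proteins were dim, except Rps19bp1, which had 1034 and 1208 on the DSS arrays, against 325.1 and 1357 on the untreated arrays. Rps6kc1 had 4.93 and 16.1 on the DSS arrays, against 66.2 and 42.7 on the untreated arrays. Rps6kl1 had 38.6 and 19.8 on the DSS arrays, against 339.1 and 59.7 on the untreated arrays. The pseudogene Rps15a-ps6 had 3.09 and 33.5 on the DSS arrays, against 127.7 and 105.9 on the untreated arrays. These 3 genes were lower on both DSS arrays but failed the filter on low signals, and had no test.

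The direction of the members depended on how the arrays were put on a common scale. As deposited, each array had been scaled to the same trimmed mean. Quantile normalization, which forces the same distribution on every array, gave 35 members higher and 16 lower, beside 17.3% and 19% of all probe sets. Scaling to a common median gave 39 higher and 23 lower, beside 22.5% and 15.9%. Cyclic loess gave 24 higher and 30 lower, beside 17.7% and 18.8%. The median over all members was 0.23, 0.19 and 0.04 under these scalings, and over all probe sets it was -0.02, 0.09 and -0.01.

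The classes did not move alike. From 2000 to 8000 the members' median was 0.53 as deposited, 0.37 after quantile normalization, 0.88 with a common median and 0.35 after cyclic loess. From 8000 to 32000 it was 0.42, 0.35, 0.77 and 0.37 in the same order. In both classes the members' median was above 0 and above that of the other probe sets under each of these scalings. At 32000 and above it was -0.57 as deposited, 0.24 after quantile normalization, -0.22 with a common median and -0.32 after cyclic loess.

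**Figure D4:**
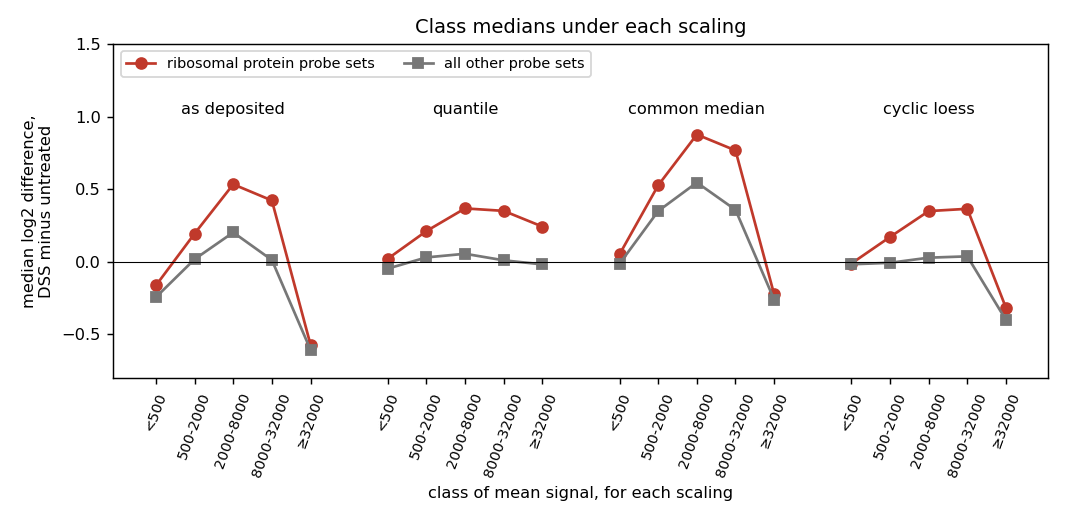
The median log2 difference (DSS minus untreated) of the members and of all other probe sets is shown for each class of mean signal under 4 scalings of the arrays. At 32000 and above the members' median runs from -0.57 as deposited to 0.24 after quantile normalization, while from 2000 to 32000 it stays above 0 under each scaling.

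The calls also depended on the untreated arrays. Without untreated replicate 1, limma called 27 members, 9 higher (7.17% of all fitted probe sets were called higher) and 18 lower (4.15%). Without untreated replicate 2, it called 15 members, 7 higher (3.76%) and 8 lower (1.64%). In these fits the lone untreated array was assumed to vary like the DSS arrays. A total of 5 member probe sets were called in both fits, and all 5 were lower: those of Rps28, Rpl27, Rpl13a, Rps18 and Rps20 described above. Of all fitted probe sets, 268 (1.09%) were called higher in both fits and 69 (0.282%) lower. Both fits hold the same DSS arrays, so they are not independent. The 5 member probe sets all had a mean signal of 32000 or more. In that class 60.8% of all probe sets were lower on both DSS arrays as deposited. The share of that class called in both fits was not counted, so the 5 cannot be set apart from other bright probe sets. Leaving out either DSS array gave 0 calls among the members.

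Other genes of translation were read on the brightest probe set of each gene, and limma called 0 genes of any of these lists. Beside their counts stand 13.6% higher and 25.4% lower over all probe sets. That share covers every probe set and not 1 per gene, and it differs between signal classes. Of 8 elongation factors and their regulators, 2 were higher and 1 lower on both DSS arrays, with a median of 0.19. Their median signal was 14550, and from 8000 to 32000 the shares of all probe sets were 17.4% and 17.1%. Tpt1, whose transcript also carries a pyrimidine tract, had 63064 and 75400 on the DSS arrays, against 211220 and 149168 on the untreated arrays. Its difference of -1.36 ± 0.39 resembled that of the brightest members, and it was -0.06 after quantile normalization. Eef2, the translocase, gave 0.34 ± 0.38 and Eif5a gave 0.62 ± 0.36. Of 24 initiation factors, 7 were higher and 4 lower, beside 29.5% and 10.9% of all probe sets from 2000 to 8000. The factors had a median signal of 4339 and a median difference of 0.35. The named ones were Eif5 at 0.87 ± 0.36, Eif3m at 1.23 ± 0.51 and Eif2s2 at 1.11 ± 0.47.

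Genes of ribosome production showed no common direction. Of 38 ribosome biogenesis genes, 7 were higher and 7 lower on both DSS arrays, beside 13.6% and 25.4% of all probe sets. Among all probe sets from 500 to 2000 the shares were 20.5% and 19.9%. These 38 genes had a median signal of 1076 and a median difference of 0.08. Rpf2, an assembly factor of the large subunit, stood at -1.27 ± 0.39, while the RNA-guided modification proteins Nhp2 and Fbl stood at 1.31 ± 0.44 and 1.21 ± 0.47. Of 18 genes of mTOR and Myc control, 6 were higher and 6 lower, with a median of -0.09. Their median signal was 792, in the class from 500 to 2000. Rheb, the activator of mTOR, stood at 1.81 ± 0.61, Max, the partner of Myc, at 1.56 ± 0.44 and Eif4ebp2, an inhibitor of initiation, at 0.90 ± 0.40. Of 4 measured kinases of the Rps6ka and Rps6kb families, 1 was higher and 1 lower, with a median of -0.33. Fau, the ubiquitin-like fusion to a small subunit protein, had overlapping groups and a difference of -0.19 ± 0.42.

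Mitochondrial ribosomal proteins, which serve the organelle's own ribosome, were read in 76 genes. Of these, 20 were higher and 12 lower on both DSS arrays, beside 13.6% and 25.4% of all probe sets. Among all probe sets from 500 to 2000 the shares were 20.5% and 19.9%. These 76 genes had a median signal of 1316 and a median difference of 0.16. The 3 with the smallest limma p were Mrpl41 at -1.28 ± 0.42, Mrps14 at 1.00 ± 0.40 and Mrps5 at -1.14 ± 0.46. Mrpl41, the brightest of these 3, had 18340 and 24609 on the DSS arrays, against 40010 and 66752 on the untreated arrays.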

How the data were processed

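The authors deposited an intensity for every probe set on each array, on a linear scale, and the submitters' processing notes name GCOS (version and settings: not given in the sources used here). These intensities average 500 on every array once the 2% at either end are trimmed. Precision is limited by how few arrays there are. Symbols came from a platform table, and all 109 members matched a table of mouse genes by gene number.

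Signals were analysed as log2(signal + 32). The 24483 probe sets that exceeded their array's median at least 2 times in the 4 arrays were fitted in R 4.3.3 with limma 3.58.1 (functions lmFit and eBayes, trend on). The model held group alone, and p was adjusted over all fitted probe sets by Benjamini-Hochberg, with a threshold of 0.05. The script was tested on simulated data. Medians and counts cover all members, dim ones included, with no test.

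The members, lists and rules were chosen with earlier results of these data known. The text names the 5 members with the largest moderated t each way whose groups do not overlap, the 3 brightest, a fixed set of well-known genes, the paralogs with their parents, up to 5 genes with the widest range between probe sets, and members that are no ribosomal protein. Of other lists it names at most the 3 genes with the smallest p, but for Fau and marker and control values. The alternatives were other scalings, pseudocounts, filters, a replicate block, probe set choices and leaving out each array. Sharing of replicate numbers was checked: the replicate differences of the groups correlated at 0.0589, and the numbers were not taken to pair the samples.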

Additional observations from a re-analysis of the deposited data

How the results depend on the processing

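The members' median, -0.15 as deposited, was 0.23 (quantile), 0.19 (common median) and 0.040 (cyclic loess, chosen after seeing the data), and the brightest probe set per gene gave -0.40. Below 500 the median was 0.021 with quantile and 0.052 with common median scaling. From 500 to 2000 it was 0.53 with common median scaling and -0.0073 over ribosomal proteins alone. From 2000 to 8000 it was 0.37, 0.88 and 0.35 under quantile, common median and loess scaling, -0.075 over 5 plain probe sets and 0.17 for the brightest per gene. From 8000 to 32000 it was 0.77 with a common median and 0.62 for the brightest per gene. At 32000 and above it was 0.24, -0.22 and -0.32 under the 3 scalings and -0.81 over 3 plain probe sets. The counts of members higher and lower on both DSS arrays were 35 and 16 (quantile) and 39 and 23 (common median). As deposited they were 7 and 11 (37 plain probe sets), and 8 and 23 (brightest per gene, 53 genes). The shares of all probe sets were 17.3% and 19% (quantile), 22.5% and 15.9% (common median), and 13.6% and 25.4% as deposited. Leaving out 1 array at a time gave 0 to 2770 calls among all probe sets and 0 to 27 among the members. It gave medians of -0.24 to -0.06 over all members, and of -0.39 to -0.08, 0.11 to 0.36, 0.34 to 0.56, 0.16 to 0.50 and -0.81 to -0.43 by class. It gave counts of 23 to 39 higher and 38 to 53 lower (an alternative chosen after seeing the data), which a smaller group makes easier to reach. With a replicate block limma called 51 probe sets and 0 members. The same block left the signs of 53 named member probe sets as they were. Of 63 named member probe sets, 12 changed sign under quantile, 8 under common median and 5 under loess scaling, 0 with a smaller or a larger pseudocount, and 4 to 13 without an array. The causes were not tested.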

Other observations

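The 110 probe sets that list a ribosomal protein among several symbols were left out of the members and are not named. Their median log2 difference was -0.20 (DSS minus untreated), with 16 higher and 41 lower on both DSS arrays, beside 13.6% and 25.4% of all probe sets. After quantile normalization the median was 0.19, with 31 higher and 18 lower, beside 17.3% and 19% of all probe sets. With a common median it was 0.13, with 42 and 32, beside 22.5% and 15.9%. Cyclic loess gave -0.05, with 21 and 41, beside 17.7% and 18.8%. At 32000 and above there were 50 of them, with a median of -0.76, 0 higher and 34 lower, beside 0.472% and 60.8% of all probe sets in the class. After quantile normalization these 50 had a median of 0.05, with 11 higher and 10 lower, beside 20.8% and 23.6% of the class. With a common median they had -0.41, with 4 and 28, beside 9.91% and 41.5%. After cyclic loess they had -0.50, with 2 and 33, beside 5.19% and 56.6%. No test was made of these values.

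Of 11 neutrophil genes, 0 were higher and 3 lower on both DSS arrays, with Camp and Cxcr2 below the median of the array on all 4 arrays and summed signals of 1321 and 2821 on the DSS arrays, against 2177 and 2235 on the untreated arrays. Of 6 B and plasma cell genes and of 8 fibroblast and endothelial genes, 0 were higher and 0 lower on both DSS arrays. Over all probe sets the shares were 13.6% higher and 25.4% lower.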
